A study of Mus musculus with 2 samples.

Results

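Keratins and desmosome genes were followed in a pair of mouse epithelial cell lines, Mle29c and Mlesico, each measured on 1 oligonucleotide array. The members are all probe sets whose only annotated gene is a numbered keratin, a desmocollin, a desmoglein, a plakophilin, or Dsp, Jup, Ppl, Evpl, Epcam or Perp. This gave 87 probe sets of 60 genes, of 34945 single-gene probe sets of 18193 genes on the array. Of the 60 genes, 44 are keratins and 16 belong to the desmosome or are Epcam and Perp. Keratin 6 and keratin 33 carry a letter in their symbols and were not members. The labels call both lines epithelial, and both grew in DMEM with fetal bovine serum. They state neither how each line was derived nor whether either is a single clone, and the series title names miR-29c in lung fibrosis without saying how the microRNA differs between the lines.

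Keratins form the intermediate filaments of epithelial cells. A type I and a type II keratin pair as obligate partners, so that the filament of simple epithelia, including that of the lung, is built mainly from Krt8 with Krt18 or Krt19. Basal cells of stratified epithelia use Krt5 with Krt14, while hair and root sheath keratins belong to the hair follicle. At desmosomes the cadherins of neighbouring cells (desmocollins and desmogleins) bind each other, plakoglobin (Jup) and plakophilins gather at their tails, and desmoplakin (Dsp) ties this plaque to the keratin filaments.

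The mature microRNA named in the series title is shown first, because the study is about it. The 22 bases come from RefSeq (build GRCm38.p6, chr1:195037600-195037621, plus strand), and the capitals mark the seed, bases 2 to 8.
mmu-miR-29c-3p: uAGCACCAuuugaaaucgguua
No difference between the lines in the level of this microRNA was analysed here.

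Promoters of 5 members that carry the main results are shown next: the partner genes Krt8 and Krt18, the simple keratins Krt7 and Krt23, and Dsp. They were chosen after the values were seen. Each window runs from 250 bases before to 50 bases after the annotated start in RefSeq (build GRCm38.p6), written 5′ to 3′ on the gene's strand. Capitals mark matches on either strand to the motifs TATAAA, to GGGCGG (the GC box) or to CAGGTG. The AP-1 motif TGANTCA was searched as well and is in none of the 5 windows.
Krt8 promoter, chr15:102004293-102004592, minus strand: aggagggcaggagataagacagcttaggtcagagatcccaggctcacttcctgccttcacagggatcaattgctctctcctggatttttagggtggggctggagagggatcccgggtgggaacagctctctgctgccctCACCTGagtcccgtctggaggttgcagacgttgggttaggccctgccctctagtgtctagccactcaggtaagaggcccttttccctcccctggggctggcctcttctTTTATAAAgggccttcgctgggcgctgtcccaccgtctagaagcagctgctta
Krt18 promoter, chr15:102027966-102028265, plus strand: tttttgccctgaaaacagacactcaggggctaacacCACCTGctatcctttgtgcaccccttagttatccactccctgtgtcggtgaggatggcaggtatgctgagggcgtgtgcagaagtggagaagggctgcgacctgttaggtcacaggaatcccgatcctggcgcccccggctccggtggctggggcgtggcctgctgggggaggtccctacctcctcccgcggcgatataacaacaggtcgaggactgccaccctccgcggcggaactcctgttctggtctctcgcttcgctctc
Krt7 promoter, chr15:101412153-101412452, plus strand: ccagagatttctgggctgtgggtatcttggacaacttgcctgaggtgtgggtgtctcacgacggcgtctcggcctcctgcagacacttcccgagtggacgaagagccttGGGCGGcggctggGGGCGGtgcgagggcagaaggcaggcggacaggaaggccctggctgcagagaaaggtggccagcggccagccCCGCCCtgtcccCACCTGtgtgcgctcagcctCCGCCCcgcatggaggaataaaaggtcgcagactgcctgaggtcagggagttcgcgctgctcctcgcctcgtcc
Krt23 promoter, chr11:99493071-99493370, minus strand: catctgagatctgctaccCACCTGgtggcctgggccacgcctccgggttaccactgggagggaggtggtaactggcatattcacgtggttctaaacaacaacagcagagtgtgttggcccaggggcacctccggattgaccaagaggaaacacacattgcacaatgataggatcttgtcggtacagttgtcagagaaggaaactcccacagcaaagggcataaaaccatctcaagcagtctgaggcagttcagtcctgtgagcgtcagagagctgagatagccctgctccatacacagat
Dsp promoter, chr13:38151044-38151343, plus strand: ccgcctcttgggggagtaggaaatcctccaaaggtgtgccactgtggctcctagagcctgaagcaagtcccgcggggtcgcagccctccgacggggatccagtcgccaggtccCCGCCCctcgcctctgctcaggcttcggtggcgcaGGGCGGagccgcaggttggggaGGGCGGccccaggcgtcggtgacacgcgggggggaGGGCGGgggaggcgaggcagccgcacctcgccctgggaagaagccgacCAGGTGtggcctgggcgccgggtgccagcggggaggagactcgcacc
CAGGTG, a letter pattern that transcription repressors of the Snail and Zeb families are known to bind, is in all 5 windows and in 20.2% of the 32851 promoters of the table. Over all members, 35 genes had a promoter in the table and 15 of them (42.9%) held this pattern. The GC box GGGCGG occurs 4 times in Krt7 and 4 times in Dsp and in none of the other three; 35.7% of all promoters and 6 of the 35 member genes (17.1%) held it. TATAAA is in Krt8 alone among the 5, as overlapping matches on both strands that touch the annotated start, against 13.6% of all promoters and 17 of 35 members (48.6%). TGANTCA was in 7.81% of all promoters and in 1 of the 35. The member shares count a gene once if any of its promoters in the table held the pattern. The shares of all promoters count each promoter, so member and background shares are not like for like. A match to letters is a description of the window and shows no binding.

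Each deposited value is a log signal, taken as log2, centred on the midpoint of both arrays, so the values of a probe set mirror each other and the level itself was removed. The log base is not stated. Ratios below are Mle29c over Mlesico on the log2 scale, and a gene's ratio is the median over its measured probe sets. The grain of the stored decimals still tells a rough level class for each probe set: high (a mean signal of 256 or more), middle (16 to 256) or low. The class is called firm where the sum of both values gave it, and tentative where it came from the rounding step, which can place a dim probe set too high. A probe set of the high or middle class is called measured, and 39 of the 60 genes had at least 1. With 1 array per line there is no replicate, so every difference is given without a test, and fewer cells of a type cannot be told apart from less RNA per cell. Within the arrays, measured probe sets of the same gene differed with a pooled SD of 0.62 in log2 ratio over 6893 genes.

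Among the 39 measured members, 4 were at least 2-fold higher in Mle29c (10.3%), against 8.41% of all 14819 measured genes. A further 7 were at least 2-fold lower (17.9%), against 7.19% of all measured genes. The higher genes were Krt23, Krt83, Krt77 and Krt80, and the lower ones were Krt76, Krt34, Krt78, Krt13, Dsp, Krt1 and Krt7. The median ratio of the 39 was -0.16, against 0.01 over all measured genes. Only Krt80 and Krt7 among the 11 rested on a firm class: of the 20 member probe sets with a firm high or middle class those 2 (10%) were past 2-fold, against 13.1% of all such probe sets on the arrays. Of the 30 with a tentative one, 12 (40%) were past 2-fold, against 17.2% of all such probe sets.

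Simple keratins, the filament proteins of single-layered epithelia, differed from gene to gene. Krt8, the type II partner in simple filaments, had 3 probe sets, all of the high class. The class was firm for the probe set at a ratio of 0.63 alone. The others were tentative and of a design that can match several transcripts. The centred log2 values of the 3 were 0.31, 0.29 and 0.33 in Mle29c, against -0.31, -0.29 and -0.33 in Mlesico. The ratio of Krt8 was therefore 0.63 (probe sets from 0.58 to 0.66), a 1.55-fold higher signal in Mle29c that stayed short of the 2-fold line. Krt18, its usual type I partner and its neighbour on chromosome 15, had -0.10 in Mle29c against 0.10 in Mlesico, a ratio of -0.20 with a firm middle class. Krt19, the other type I partner, had -0.03 in Mle29c against 0.03 in Mlesico, a ratio of -0.06. The ratio of Krt8 is about the SD between probe sets of a gene, and those of Krt18 and Krt19 are smaller in size than it.

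Krt7, a type II keratin of ducts and lung epithelium, was the simple keratin past 2-fold lower in Mle29c. It had -0.60 in Mle29c against 0.60 in Mlesico, a ratio of -1.20 or 2.29-fold, from 1 probe set with a firm middle class. Krt80, a type II keratin found near cell junctions, had 0.60 in Mle29c against -0.60 in Mlesico, a ratio of 1.21 or 2.31-fold, with a firm high class. These genes lie side by side among the members on chromosome 15, and their ratios had opposite signs. Krt23, a type I keratin, had 1.21 in Mle29c against -1.21 in Mlesico, a ratio of 2.43 or 5.37-fold from 1 tentative middle-class probe set. Krt20, a keratin of gut and urothelium, was in the low class, with 0.70 in Mle29c against -0.70 in Mlesico. Of the 6 measured simple keratins 2 were past 2-fold higher, 1 past 2-fold lower and 3 within 2-fold, against 8.41% of all measured genes higher and 7.19% lower, and their median was 0.28.

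**Figure D1:**
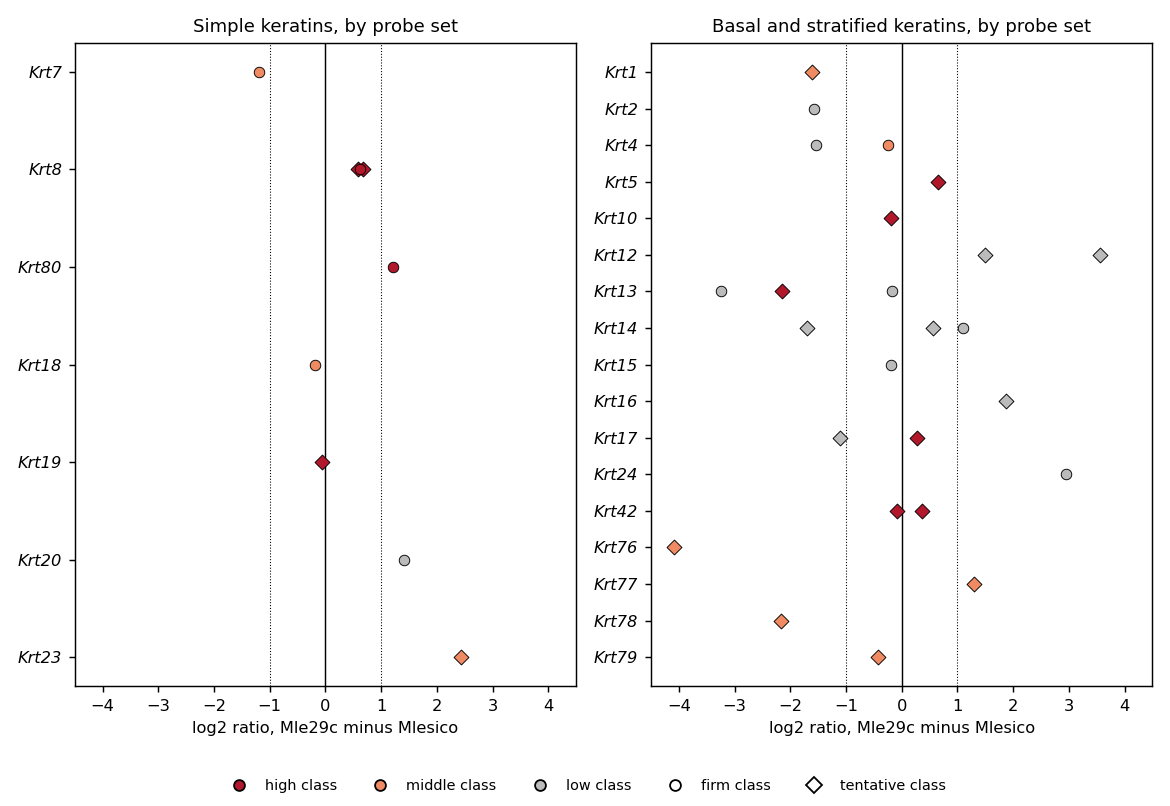
Log2 ratio (Mle29c minus Mlesico, horizontal axis) of each probe set of the simple keratins (left) and of the basal and stratified keratins (right), 1 point per probe set, coloured by level class, with circles for firm and diamonds for tentative classes; dotted lines mark 2-fold. The 3 Krt8 probe sets lie together between 0.58 and 0.66, Krt7 and Krt80 lie on opposite sides, and most points beyond 2-fold on the right are diamonds or of the low class.

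Keratins of basal and stratified epithelia split by how well they were measured. Krt5, the type II keratin of basal cells, had 0.33 in Mle29c against -0.33 in Mlesico, a ratio of 0.65 with a tentative high class. Its partner Krt14 had low-class probe sets alone, at -1.71, 0.56 and 1.11, which do not share a sign. Krt15, another basal keratin, was in the low class at -0.19. A probe set shared by Krt17 and Krt14, which was not a member, had a ratio of 0.64 with a firm middle class.

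Keratins induced by wounding showed no ratio past 2-fold where they were measured. Krt17 stood at 0.28 in its measured probe set and at -1.10 in its low-class one. Krt16 was in the low class at 1.86. The partners Krt6a and Krt6b, listed beside the members, stood at 0.22 (probe sets at 0.01 and 0.42) and 0.45. Krt6a had in addition a low-class probe set at -1.66.

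Suprabasal and mucosal keratins ranged from the lowest ratio of all members to ratios near 0. Krt76, a type II keratin of the oral mucosa, had -2.04 in Mle29c against 2.04 in Mlesico, a ratio of -4.09 from 1 tentative probe set of a design that can match several transcripts. Krt78 had a ratio of -2.17, and Krt1, the type II keratin of differentiating epidermis, one of -1.61. Both came from 1 tentative middle-class probe set each. Krt10, the epidermal partner of Krt1, stood at -0.19. Krt13, a keratin of internal stratified epithelia, had a measured ratio of -2.14, while its low-class probe sets lay at -3.25 and -0.17. Its partner Krt4 had -0.25 in a firm middle-class probe set and -1.53 in a low-class one.

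Among the rest of the stratified keratins, Krt77 was higher in Mle29c at 1.30, whereas Krt42 at 0.15 and Krt79 at -0.43 lay within 2-fold. Krt2, Krt12 and Krt24 had low-class probe sets alone, with gene ratios of -1.57, 2.52 and 2.96. In all, 11 of 17 genes were measured, with 1 higher, 4 lower and 6 within 2-fold, against the same 8.41% and 7.19% of all measured genes. The median was -0.25, and its sign turned to 0.15 over the 5 genes with a high-class probe set. No gene of the 4 lower ones had a firm class.

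Hair keratins, which build the hair shaft, had a median ratio size of 0.43 regardless of sign, against 0.36 over all measured genes. Of 8 measured genes, 6 were within 2-fold, from Krt84 at -0.46 to Krt32 at 0.83, and the median was -0.07. Past 2-fold, 1 (12.5%) was higher and 1 (12.5%) lower, against 8.41% and 7.19% of all measured genes. Krt83 had 0.67 in Mle29c against -0.67 in Mlesico, a ratio of 1.34. Krt34 had -1.13 in Mle29c against 1.13 in Mlesico, a ratio of -2.27 or 4.81-fold. Both were of a tentative high class. The 4 hair keratin probe sets with a firm middle class, Krt32, Krt36, Krt81 and Krt86, lay between -0.18 and 0.83. Inner root sheath keratins had 7 of 8 genes in the low class, with ratios from -2.31 (Krt71) to 3.52 (Krt27), and the measured one, Krt72, stood at -0.16. Krt88 stood at 0.03. The tail-truncated keratin Krt222 had probe sets at 1.96 and -2.35, which cancel in its median of -0.19.

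The desmosomal cadherins, whose genes form a cluster on chromosome 18, were dim on these arrays. None of their 14 probe sets was in the high class, 4 were in the middle class and 10 in the low class. Dsc2, the desmocollin of simple epithelia, had -0.39 in Mle29c against 0.39 in Mlesico, a ratio of -0.78 from its measured probe set, and 0.07 from its low-class one. Dsc3, a desmocollin of basal layers, had a measured ratio of -0.56 with a firm class and a low-class one of 0.32. Dsg2, the desmoglein of simple epithelia, had 6 probe sets. The measured ones, both firm, stood at -0.30 and 0.71, and the low-class ones at -3.21, -1.16, -0.21 and 1.39, so no direction can be read for Dsg2. The epidermal forms Dsc1 (1.25 and 1.52), Dsg1a (0.38) and Dsg1b (-1.61) were in the low class throughout. No measured cadherin was past 2-fold, where 15.6% of all measured genes were, and the median of the 3 was -0.56.

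The plaque genes had 11 of 15 probe sets in the high or middle class. Among these, only the Pkp4 probe sets and a middle-class Pkp2 probe set had a firm class, and the others were tentative. Of 6 measured plaque genes 1 (16.7%) was past 2-fold, against 15.6% of all measured genes. This was Dsp, which links the plaque to keratin filaments. Its measured probe sets had -0.95 and -1.13 in Mle29c, against 0.95 and 1.13 in Mlesico. The gene ratio was -2.08 or 4.23-fold lower in Mle29c, with probe sets at -1.91 and -2.25. Both are tentative and were built from the same transcript record, so they are not independent; the remaining probe set, in a firm low class, stood at 0.45.

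The armadillo proteins that bind the cadherin tails lay within 2-fold. Jup, which encodes plakoglobin, had 0.14 in Mle29c against -0.14 in Mlesico, a ratio of 0.28 with a tentative high class. Pkp2, the plakophilin of simple epithelia and heart, had 4 measured probe sets between -0.73 and -0.03 and a ratio of -0.13. Pkp4, a relative of p120 catenin, had -0.20 and -0.19 in Mle29c against 0.20 and 0.19 in Mlesico, a ratio of -0.39 with a firm high class in both probe sets. Pkp1, known from stratified epithelia, was in the low class at -0.68, and so was Pkp3 at -0.24 and 1.27.

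The plakins of the cornified envelope were both above 0, each from a tentative high-class probe set. Ppl, which encodes periplakin, had 0.44 in Mle29c against -0.44 in Mlesico, a ratio of 0.88. Evpl, which encodes its partner envoplakin, had 0.39 in Mle29c against -0.39 in Mlesico, a ratio of 0.77. Perp, a tetraspan protein of desmosomes and target of p53, stood at 0.50 with a firm high class. Epcam, an adhesion molecule of epithelial cells, stood at -0.52, with firm probe sets at -0.84 and -0.20. Of the 11 measured desmosome genes with Epcam and Perp, 10 lay within 2-fold and the exception was Dsp. Of all 14819 measured genes, 12506 lay within 2-fold.

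**Figure D2:**
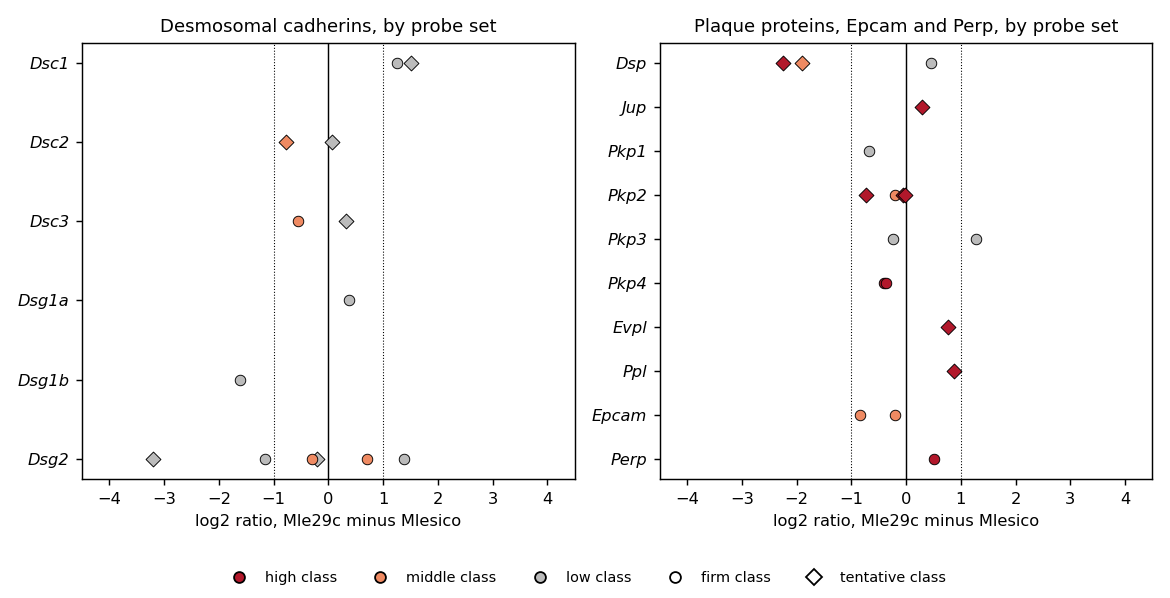
Log2 ratio (Mle29c minus Mlesico, horizontal axis) of each probe set of the desmosomal cadherins (left) and of the plaque genes with Epcam and Perp (right), coloured by level class, with circles for firm and diamonds for tentative classes; dotted lines mark 2-fold. Dsg2 probe sets spread from -3.21 to 1.39, and the measured Dsp probe sets at -1.91 and -2.25 stand apart from the other measured plaque genes, which lie between -0.73 and 0.88.

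The keratin genes sit in a pair of clusters, and the chromosomes that carry them differ in their ratios. Other measured genes of chromosome 11, which holds the type I cluster, had a median of -0.25 (1196 genes), and those of chromosome 15, which holds the type II cluster, had one of 0.37 (564 genes). The 11 measured type I keratins had a median of -0.06, with 1 at least 2-fold higher (9.09%) and 2 lower (18.2%). The 17 measured type II keratins had a median of -0.18, with 3 higher (17.6%) and 4 lower (23.5%). Over all measured genes 8.41% were higher and 7.19% lower. Of the other 1196 genes of chromosome 11, 68 were higher and 86 lower, and of the 564 of chromosome 15, 79 and 34. The 40 measured genes next to the clusters had medians of -0.18 for type I and 0.13 for type II. Some neighbouring keratins had opposite signs, others the same sign. Krt8 stood at 0.63 beside Krt18 at -0.20 and Krt78 at -2.17, and Krt77 at 1.30 beside Krt76 at -4.09. Krt76, Krt4, Krt79 and Krt78, in a row, were all below 0, and Krt31 and Krt32 were both above it at 0.39 and 0.83. Relative to the median of its chromosome, Krt80 stood at 0.85, Krt77 at 0.94 and Krt83 at 0.98, each below the 2-fold line, while Krt32 passed it at 1.07 and Evpl at 1.02. On that scale Krt7 stood at -1.56, Krt8 at 0.27, Krt18 at -0.55 and Krt23 at 2.67. The part of the chromosome medians in the keratin ratios was not tested.

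**Figure D3:**
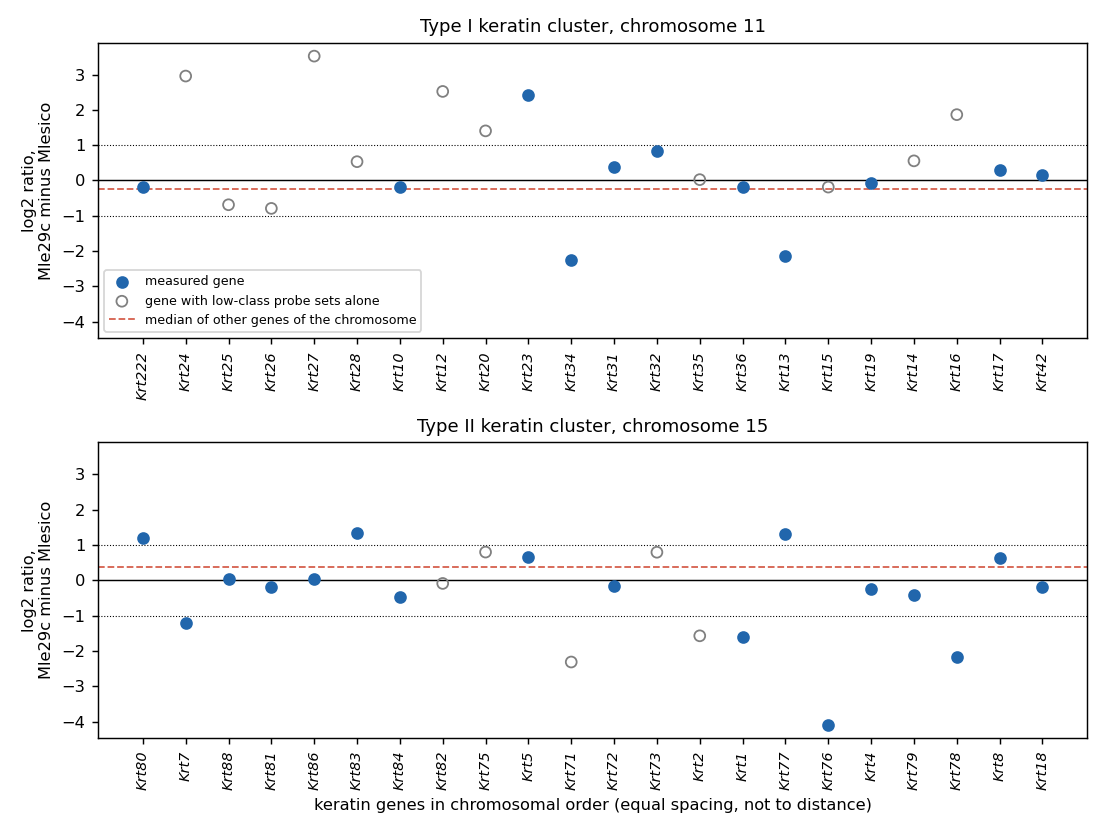
Log2 ratio (Mle29c minus Mlesico, vertical axis) of the keratin genes in chromosomal order, type I on chromosome 11 (top) and type II on chromosome 15 (bottom); filled points are measured genes, open points are genes with low-class probe sets alone, and the dashed line is the median of the chromosome's other measured genes. The dashed lines lie at -0.25 and 0.37, and both signs occur along each cluster.

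Level class went with the size of the ratios. In the low class 20 of 37 member probe sets (54.1%) were past 2-fold, against 57.4% of all low-class probe sets. In the middle class 8 of 26 (30.8%) were, against 22.8%, and in the high class 6 of 24 (25%), against 10.5%. All 6 past 2-fold in the high class were Krt80, Dsp, Krt13, Krt34, Krt83 and Krt222, of which Krt80 alone had a firm class. Over every class, 16 of 87 member probe sets were at least 2-fold higher, where 12.7% of all single-gene probe sets were. Another 18 were at least 2-fold lower, where 11.7% of all were. Together these are 34 of 87 (39.1%), against 24.4% of the array. Low-class probe sets made up 42.5% of the members and 21.8% of the whole array. The 8 member genes with 2 or more measured probe sets had a pooled SD of 0.98 between them, and 5 of the 8 had all of these on the same side of 0.

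**Figure D4:**
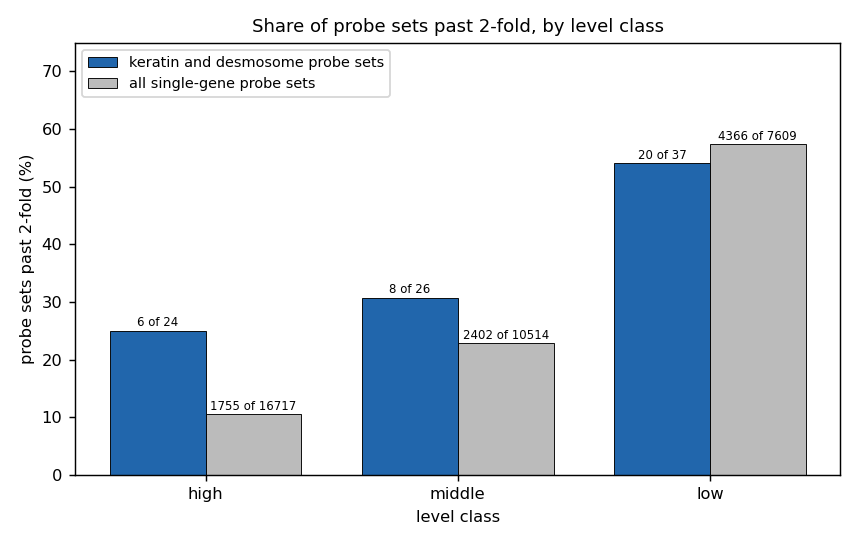
Share of probe sets past 2-fold in either direction (percent, vertical axis from 0) in the high, middle and low level classes, for the keratin and desmosome probe sets (left bars) and for all single-gene probe sets (right bars), with counts above the bars. The share among members is 25% in the high class and 54.1% in the low class, against 10.5% and 57.4% of all probe sets.

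Genes that anchor keratins or organise them were listed beside the members. Of 14 measured linker, hemidesmosome and envelope genes, 2 (14.3%) passed the 2-fold line upward in Mle29c and 3 (21.4%) downward. The shares of all measured genes were 8.41% and 7.19%. The median of the list was -0.01. Eppk1, which encodes the keratin-binding plakin epiplakin, had 1.91 in Mle29c against -1.91 in Mlesico, a ratio of 3.82 from 1 tentative probe set. Fam83h, whose protein controls keratin filament organisation, had -1.38 and -1.30 in Mle29c against 1.38 and 1.30 in Mlesico, a ratio of -2.68. Kazn, which encodes kazrin, a binding partner of periplakin, stood at -2.40 with probe sets from -2.84 to -0.07. The hemidesmosome integrin genes parted, with Itgb4 at 1.24 and Itga6 at -1.50. Plec, which encodes plectin, stood at 0.80 and Pnn, which encodes pinin, at -0.78.

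Other intermediate filament genes had 1 of 16 measured genes (6.25%) past 2-fold, where 15.6% of all measured genes were. It was Synm, which encodes synemin, at 1.28 with probe sets at 1.24 and 1.32. Vim, the vimentin gene of mesenchymal filaments, had a ratio of 0.30, and Des, the desmin gene, one of -0.99. The lamin genes Lmna, Lmnb1 and Lmnb2 stood at 0.26 (probe sets from -1.61 to 0.89), 0.02 and 0.13, and the median of the list was 0.17.

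Among 16 measured regulators of epithelial genes, 2 (12.5%) passed the 2-fold line upward in Mle29c and 2 (12.5%) downward. The shares of all measured genes were 8.41% and 7.19%. The median of the regulators was 0.14. Ovol2, a repressor of mesenchymal genes, stood at 1.26 with a firm class. Ehf, an epithelial Ets factor gene, was just past the line at 1.002, from 1 tentative probe set. That probe set is of a design that can match several transcripts, and the low-class Ehf probe sets lay at -2.70, 1.21 and 2.02. Snai2, a repressor that binds CAGGTG in the promoters of epithelial genes, stood at -1.89, with probe sets at -2.15 and -1.63. Zeb2 stood at -0.69 over 5 probe sets and Zeb1 at 0.16, with a low-class Zeb1 probe set at -2.64. Esrp1, an epithelial splicing factor gene, had a ratio of -4.51 from 1 tentative probe set, while Esrp2 stood at 0.50 with both probe sets firm. Grhl2 and Trp63, activators of epithelial and basal genes, stood at 0.71 (probe sets at -0.09 and 1.51) and 0.67. Their low-class probe sets lay at -1.07 and 3.30 for Grhl2 and at -0.98, -0.49 and 0.45 for Trp63.

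**Figure D5:**
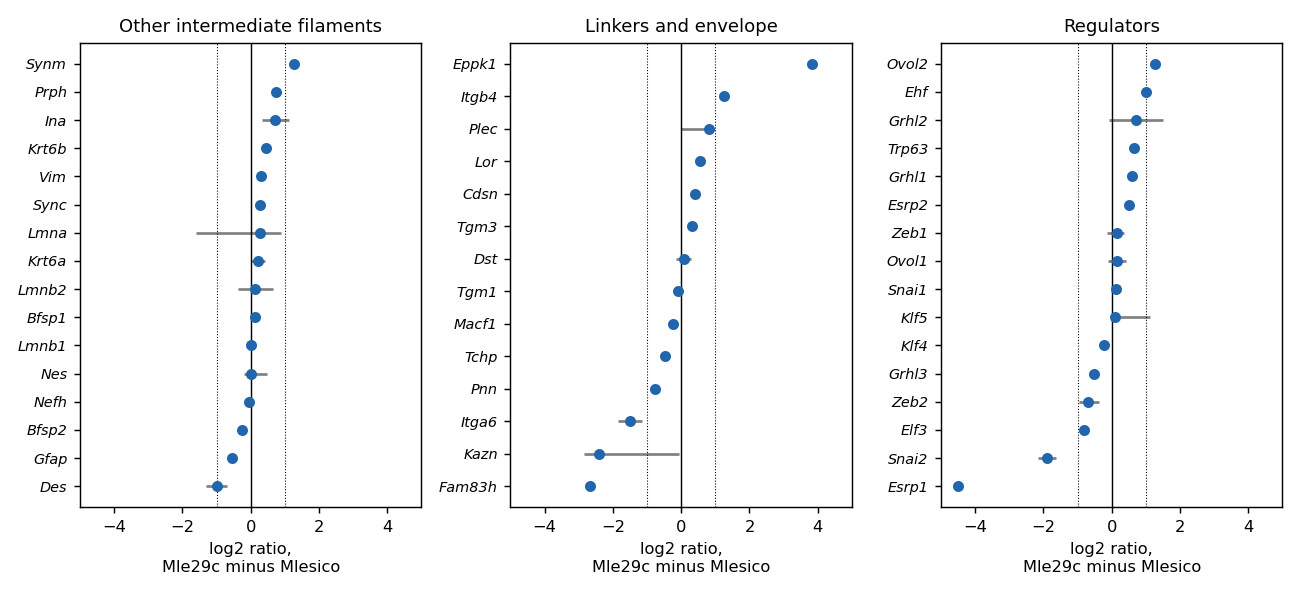
Log2 ratio (Mle29c minus Mlesico, horizontal axis) of measured genes of other intermediate filaments, of linkers and envelope, and of regulators, sorted within each panel; points are gene values, grey bars run from the lowest to the highest measured probe set, and dotted lines mark 2-fold. Eppk1 at 3.82 and Esrp1 at -4.51 are the extremes, and the gene points of the filament panel lie between -0.99 and 1.28.

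The epithelial label was set against its markers. Of 8 epithelial markers 7 were measured, among them Krt8 in the high class and Cdh1, Epcam and Krt18 in the middle class, with a median ratio of 0.31. Krt8, Krt18 and Epcam are themselves members, so this list is not separate from the members. Cdh1, which encodes E-cadherin, was at 1.46 and Cldn4 was in the low class. Airway basal markers had 3 of 5 genes measured, all within 2-fold, with Krt14 and Krt15 in the low class. Krt5, Krt14 and Krt15 of this list are members too. Fibroblast markers had 7 of 8 measured and spread from -3.41 (Col1a1) to 1.55 (Col3a1), with a median of 0.09. The measured Col3a1 probe sets lay at 0.50 and 2.59. Immune markers had 3 of 4 measured, Lyz2 in the high class at 0.23, Cd68 at -0.99 and Cd3e at 0.78, with Ptprc in the low class. Endothelial markers had 3 of 4 measured, Cdh5 at 0.05 and Kdr at 0.01 within 2-fold and Tek past it at -1.57, with Pecam1 in the low class. The Cdh5 value is the median of probe sets at 0.61 and -0.51, which differ in sign. Lyz2, Cd68, Cd3e and Tek all rest on tentative classes. Alveolar type 2 markers had a median of 1.90 over 4 measured genes. Sftpc (1.66), Sftpb (2.13) and Napsa (2.25) were past 2-fold higher in Mle29c, and Abca3 (0.35) was within 2-fold. That is 75% past 2-fold higher, against 8.41% of all measured genes. The classes of Sftpc and Napsa are tentative. The part of these markers in the keratin ratios was not tested.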

How the data were processed

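Total RNA, 1 sample per line, was measured on a 3′ expression array with biotin-labelled cRNA, per the labels' protocols. The submitters' processing notes name MAS5, which summarises probes into 1 signal, with no version. Deposited values were read as log2. The authors centred each probe set, since its 2 values sum to 0 within 1e-06. No source names the log base: under base 10 the widest ratio would be 2.09e+10-fold, and with a natural log every fold would be larger than printed.

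Of 45101 probe sets, 64 are array controls, 34945 list 1 gene in the platform annotation of 2016, 932 list several and 9160 none; 34741 of the 34945 were found in the RefSeq gene table of GRCm38.p6. Differences, medians and counts were computed in Python 3.11.15 with pandas 2.3.3. Single precision stores larger logs in coarser steps: a sum of both values of exactly 1 step gave a firm class, and otherwise the coarsest step shared by both values gave a tentative one. Classes start at a log2 level of 8 (high) and 4 (middle). The classes and ratios were tested on simulated data. Levels and ratios were drawn from probe sets of a firm class and rounded in the way the classes assume. Ratios set in advance were recovered. Firm classes were right in 96.4% of cases, tentative ones in 67.7% and high tentative ones in 53.9%. Of the tentative high or middle calls, 14.3% were truly low.

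The number of arrays limits the precision, and no p-value was computed. Named genes are the simple, basal and wound keratins, the desmosome genes, Epcam, Perp, every other member past 2-fold and the extremes of each keratin group; the remaining members are named as partners or neighbours of these or by their low class, after their values were seen. The members, keratin groups and lists were chosen with earlier results of these data known.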

Additional observations from a re-analysis of the deposited data

How the results depend on the processing

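No paired analysis was possible because each line has 1 array. Neither could an array be left out. Counts are taken as moved beyond 1.5 times, medians beyond the SD between probe sets over the root of the number of genes, and single genes beyond that SD. By these tolerances 24 counts and medians moved and 45 did not. Of the ratios of named genes 149 did not move, none past 2-fold changed sign, and Krt17 moved, to -0.41 with every probe set kept. A gene with 1 probe set keeps its ratio under every choice of probe sets that retains it. Only the chromosome median could shift it, by less than the tolerance. For such genes, among them Krt23, Krt7, Krt80 and Krt76, an unmoved ratio therefore shows no stability. Steady counts can hold other genes: relative to the chromosome median 3 genes were higher, with Krt80, Krt77 and Krt83 replaced by Krt32 and Evpl.

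Member genes at least 2-fold higher were 4 of 39. With every probe set kept they were 10 of 60 (16.7%, against 12.4% of all genes), and with firm classes alone 1 of 17 (5.88%, against 6.90%). At 1.5-fold they were 9 of 39 (23.1%, against 16.6%) and at 4-fold 1 of 39 (2.56%, against 2.67%). Member genes lower were 7 of 39, then 3 of 18 in the high class (16.7%, against 5.24%) and 1 of 17 with firm classes (5.88%, against 6.06%). Member probe sets higher were 16 of 87, then 5 of 50 in the high or middle class (10%, against 7.94%), 3 of 24 in the high class (12.5%, against 5.63%), 25 of 87 at 1.5-fold (28.7%, against 21.2%) and 4 of 87 at 4-fold (where 5.12% of all were). Those lower were 18 of 87, then 9 of 50 in the high or middle class (18%, against 7.33%), 3 of 24 in the high class (12.5%, against 4.86%) and 9 of 87 at 4-fold (10.3%, against 4.77%).

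In the high class alone the medians were 0.28 for all members, 0.63 for simple keratins, 0.15 for basal and stratified keratins, -0.46 for hair and root sheath keratins (2 genes) and 0.50 for Epcam and Perp (1 gene), against -0.16, 0.28, -0.25, -0.16 and -0.01. With every probe set kept, simple keratins stood at 0.63 and cadherins at -0.19 (against -0.56). With firm classes alone, cadherins stood at -0.18 and plaque genes at -0.29 (against 0.08), and without probe sets that can match several transcripts plaque genes stood at -0.20. Relative to the chromosome median, basal and stratified keratins stood at -0.60. The cause was not tested. Direction of a list median therefore depends on the probe sets kept for all members, basal and stratified keratins, plaque genes, and Epcam and Perp.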
